A study of Mus musculus with 2 samples.

Results

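The genes described here are the AP-1 and early growth response transcription factors, 10 genes chosen by name: Fos, Fosb, Fosl1, Fosl2, Jun, Junb, Jund, Egr1, Egr2 and Atf3. The array carried 26878 named genes, and all 10 were among them, with 16 probes in all under the authors' gene symbols. The data are 2 single-colour expression arrays of a glioblastoma stem cell line, grown as neurospheres from mouse brain tumours that were induced with the SB transposon. Both cultures were kept in serum-free neural stem cell medium with EGF and bFGF. The control group carried a lentiviral non-target shRNA, and the Stat5b-knockdown group a lentiviral Stat5b shRNA, each as stably transduced cells. There was 1 array per group, so no difference could be set against the spread between cultures, and no test was run.

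Fos proteins and Jun proteins pair through leucine zippers to form AP-1, a dimer that binds short DNA elements in growth, stress and invasion genes. Most of these genes are immediate early genes, whose transcripts appear within minutes of growth factor signalling through RAS and MAP kinases and are then quickly lost. Egr1 and Egr2 encode zinc finger factors induced by the same signals, Egr2 being best known for hindbrain and Schwann cell development. Atf3 belongs to the ATF/CREB family, can pair with Jun proteins and is a stress response gene.

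Stat5b itself was lower in the knockdown cells. At its brighter probe it read 1991 in control and 498 in knockdown cells, in processed signal, the scanner's background-corrected brightness. The arrays were scaled to their own 75th percentile, and 16354 genes had a probe well above background on both. Differences below are log2 values, knockdown minus control, and their ± is the error of the scanner software, which covers no spread between cultures. Different probes of 1 gene differed with an SD of 0.310 on this scale. Neural and glioma stem cell markers measured on both arrays were Nes, Vim, Cd44, Sox9, Prom1 and Msi1. Sox2 and Fabp7 were well above background on neither array, and Olig2 only in knockdown cells.

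None of the 10 factors reached a 2-fold difference in either direction, while of all genes measured 3.67% reached it upward and 2.41% downward in knockdown cells. Egr2 was the nearest to 2-fold and the 1 member that was higher, at 0.94 ± 0.20. Fosl1 was lower by the widest margin, at -0.81 ± 0.20, followed by Egr1 at -0.55 ± 0.20. In all, 9 of 10 members lay below 0, against 48.8% of all genes. Of these, Jun, Junb and Atf3 lay within the software's error of 0. Under quantile normalization 8 of the 10 members lay below 0. The median over the members was -0.21 and over all genes 0.01. At a smaller mark of 1.5-fold, Egr2 was higher, as were 11.0% of all genes, and Fosl1 was lower, as were 8.42% of all genes.

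**Figure D1:**
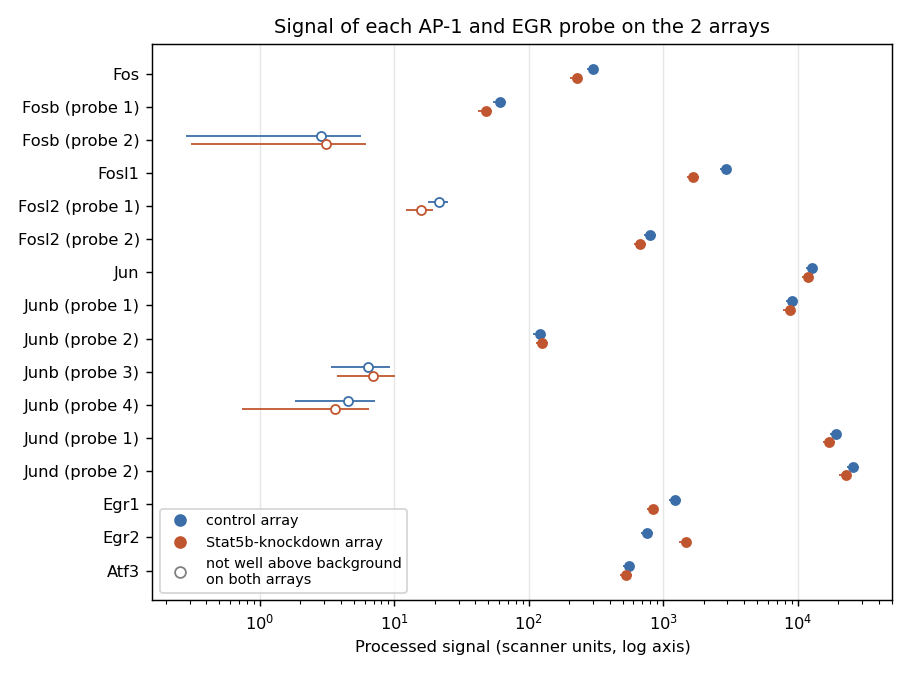
Processed signal of each probe of the 10 genes on the control and Stat5b-knockdown arrays, on a log axis in scanner units; bars are the scanner software's error and are cut short where they would reach 0. Egr2 read 761 and 1464, Fosl1 read 2917 and 1665, and the points of Jun, Jund, Atf3 and the 2 brighter Junb probes nearly coincide.

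The FOS family supplies the partners that cannot form AP-1 without a Jun protein, and all 4 of its genes had lower values in knockdown cells, with a median of -0.38. Fosl1 encodes FRA-1, an AP-1 subunit with a known part in tumour cell invasion and mesenchymal identity. Its probe read 2917 in control and 1665 in knockdown cells. The knockdown signal was thus 57.0% of control after scaling. Of all genes measured, 10.3% differed by at least this much in either direction.

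Fos, the founding member of the family, had a probe that read 299 in control and 226 in knockdown cells. The difference was -0.40 ± 0.21, and 33.0% of all genes differed by at least as much. With normexp, a background correction that damps dim probes, it was -0.26. Fosl2, which encodes FRA-2, read 801 and 677 at its brighter probe, a difference of -0.24 ± 0.20. Its dimmer probe read 21.3 and 15.9 and stood well above background only in control cells. Both Fosl2 probes therefore read lower on the knockdown array.

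Fosb, whose splice form Delta-FosB is a long-lived regulator in neurons, was near the lower end of the signal range. One probe read 60.7 and 47.7, a difference of -0.35 ± 0.23, and lay among the last 64 of 384 rows of spots. In those rows 7.57% of probes measured on both arrays differed 2-fold or more, against 5.43% elsewhere. The other probe read 2.82 and 3.09, at background on both arrays. With both probes averaged the Fosb difference was -0.11, so its value rested on which probes were kept.

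The JUN family can form AP-1 with any Fos protein or among its own members. Its 3 genes lay closer to 0 than those of the FOS family, between -0.18 and -0.0067. Jun read 12741 in control and 11857 in knockdown cells, a difference of -0.10 ± 0.20. Jund, the member most often expressed in resting cells, had 2 probes. They read 19174 and 25857 in control cells, and 17134 and 22672 in knockdown cells. The Jund probes gave -0.16 and -0.19, a near-identical pair of values, and their mean was -0.18 ± 0.14.

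Junb, which often opposes Jun in growth control, had 4 probes with very different signals. The brightest read 9106 and 8695, a difference of -0.07 ± 0.20. The next read 120.3 and 125, a difference of 0.05 ± 0.21. Both were within the software's error of 0, with opposite signs. Their mean was -0.0067 ± 0.15, and under quantile normalization it was 0.0045, so Junb had no settled direction. The remaining 2 probes read 6.33 and 6.96, and 4.50 and 3.62, and were well above background on neither array. The array names the first 2 by the RefSeq transcript of Junb and the others by other accessions. The first 30 of the 60 bases of each Junb probe follow in that order, to show that the probes read different stretches.
Junb A_51_P159194: ttcgtgtctaaagtctattttaagatgtgt
Junb A_55_P2011106: agggctttgcggacggttttgtcaaagccc
Junb A_55_P2727155: agtaactgcagccttcctgtagttgcagac
Junb A_55_P2731021: caatcactccaccaactaagccaaattccc

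The EGR genes went in opposite directions. Egr1, an early target of ERK signalling, read 1226 in control and 837 in knockdown cells, or 68.2% of control. Of all genes, 21.2% differed by at least as much as Egr1 (-0.55 ± 0.20). Its only probe also lay in the last 64 rows, and the part of position in its value was not tested. Egr2 read 761 in control and 1464 in knockdown cells, 1.92-fold higher. Of all genes, 7.06% differed by at least that much, and the Egr2 probe lay outside those rows. With normexp the Egr2 difference was 0.84, and over all alternatives it ranged from 0.84 to 0.96.

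Atf3, induced by stress and DNA damage and often together with Jun, read 554 and 531, a difference of -0.06 ± 0.20. Of all genes measured, 87.0% differed by at least as much. The first 30 bases of the single probes that gave the largest differences among the members are shown here for Egr2 and Fosl1.
Egr2 A_51_P173043: gtagccaaatttcaggtgagaatgtgcttc
Fosl1 A_51_P308796: ctagagctggcctatcataatttgcacaaa

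**Figure D2:**
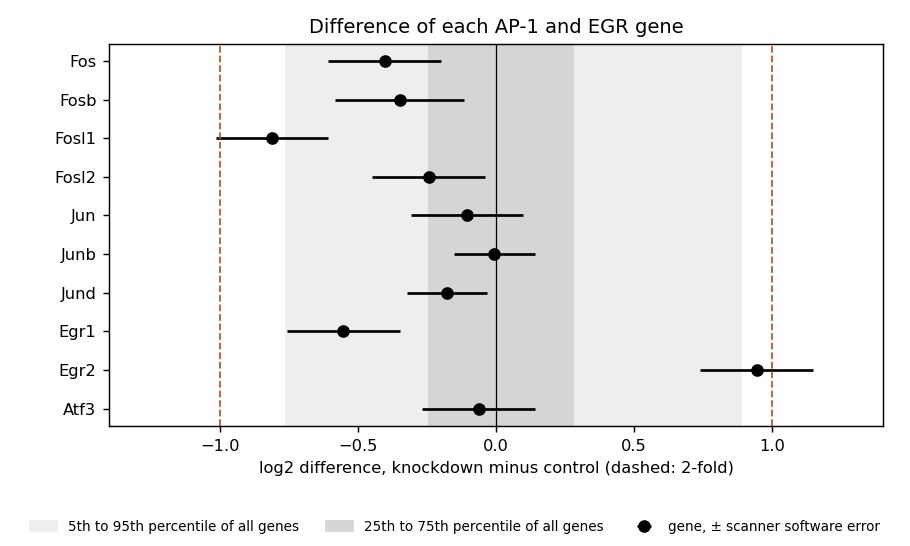
Log2 difference, knockdown minus control, of each gene (points, with the scanner software's error as bars) over the 25th to 75th (dark) and 5th to 95th (light) percentile ranges of all 16354 genes, with 2-fold marks (dashed). Egr2 at 0.94 and Fosl1 at -0.81 lie outside the 5th to 95th percentile range of all genes, which runs from -0.76 to 0.89.

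Promoters were compared because members of these families regulate one another and respond to serum response factor, which binds the CArG box. The 250 bases before the annotated start were taken from RefSeq sequences of GRCm38.p6 for 8 of the 10 genes. Fosl1 and Egr1, which were lower by the widest margins, were not searched, and neither were bases further upstream. They were searched for the AP-1 site TGACTCA, the CRE-like site TGACNTCA, the EGR site GCGNGGGCG, the STAT site TTCNNNGAA and the CArG box on both strands, and for TATAAA on the gene's strand. No searched pair of motifs overlapped in these windows. Egr2 held 1 CArG box at -72 to -63 from its start, and 1.47% of all 32851 promoters in the table hold one. A link between motifs and the direction of the differences was not tested. For Egr2 the middle of its 5 listed starts was used. Jun held 1 CRE-like site at -45 to -38, a motif found in 7.49% of promoters. Fosb and Fosl2 each held 1 EGR site, found in 4.70% of promoters. Fos held TATAAA at -33 to -28, found in 7.59%. The windows of Junb, Jund and Atf3 held none of these motifs. The letters of the STAT site, in 7.02% of all promoters, and of the AP-1 site, in 4.46%, occurred in 0 of the 8 windows. The windows of Egr2, Jun, Fos and Fosb follow, 5′ to 3′, with the matched motif in capitals. A match describes letters and does not show binding.
Egr2 (chr10:67537619-67537868, plus strand): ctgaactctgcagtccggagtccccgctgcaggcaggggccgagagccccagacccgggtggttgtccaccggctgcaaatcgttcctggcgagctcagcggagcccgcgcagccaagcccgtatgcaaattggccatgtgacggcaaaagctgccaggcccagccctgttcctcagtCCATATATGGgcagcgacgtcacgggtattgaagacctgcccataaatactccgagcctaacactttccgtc
Jun (chr4:95052223-95052472, minus strand): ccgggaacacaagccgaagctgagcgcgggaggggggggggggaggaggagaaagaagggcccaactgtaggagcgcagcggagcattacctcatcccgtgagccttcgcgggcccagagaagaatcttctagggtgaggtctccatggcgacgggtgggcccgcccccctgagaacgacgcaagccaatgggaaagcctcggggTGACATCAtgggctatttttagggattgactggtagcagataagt
Fos (chr12:85473640-85473889, plus strand): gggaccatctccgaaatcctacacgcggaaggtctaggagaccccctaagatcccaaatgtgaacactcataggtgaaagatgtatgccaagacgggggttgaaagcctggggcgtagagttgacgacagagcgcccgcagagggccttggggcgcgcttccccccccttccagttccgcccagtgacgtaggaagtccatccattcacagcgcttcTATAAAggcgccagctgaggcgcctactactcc
Fosb (chr7:19310046-19310295, minus strand): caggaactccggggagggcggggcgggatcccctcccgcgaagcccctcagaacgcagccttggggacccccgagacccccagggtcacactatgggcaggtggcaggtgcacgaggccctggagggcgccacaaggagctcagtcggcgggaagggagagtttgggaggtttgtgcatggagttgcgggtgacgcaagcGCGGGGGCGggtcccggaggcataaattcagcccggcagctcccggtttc

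**Figure D3:**
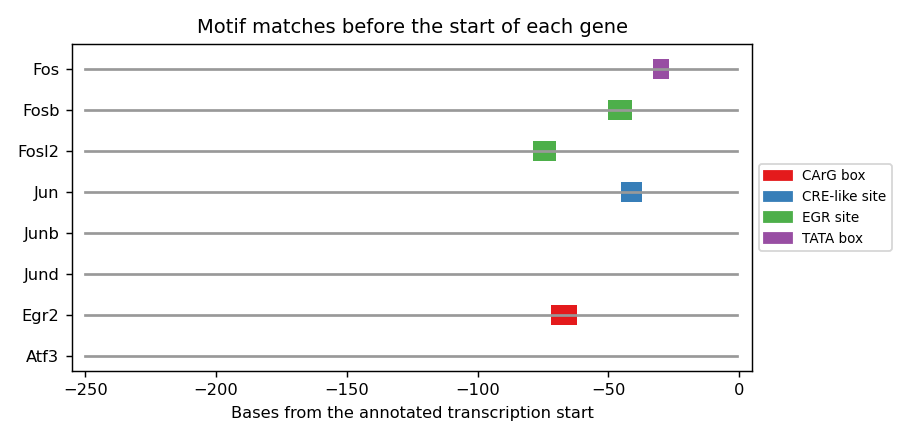
Position of each motif match in the 250 bases before the annotated start of 8 genes, in bases from that start; coloured boxes are matches and grey lines the searched windows. Matches are seen in 5 of the 8 windows, all within 79 bases of the start.

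Other genes of the same pathway were described by list. The 12 bZIP partners of AP-1, the BATF, MAF and related factors that can join its dimers, had a median of -0.09. A 2-fold difference was reached upward by 2 of the 12 and downward by 0, against 3.67% and 2.41% of all genes. Batf, which replaces Fos in dimers with Jun in immune cells, read 51.5 in control and 128 in knockdown cells (1.32 ± 0.22). With normexp Batf was at 0.70. Batf2, an interferon-inducible relative, read 149.6 and 501, a difference of 1.74 ± 0.21, at a probe in the last 64 rows. With normexp Batf2 was at 1.30. Chosen after its value was seen, Maff, a small MAF protein, was at -0.90 ± 0.20.

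Other EGR genes and the NAB co-repressors that bind EGR proteins had 4 measured genes of 5, and 0 passed 2-fold. Of all genes 3.67% passed it upward and 2.41% downward, so 0 is near those shares in a list this short. Egr4 was the highest at 0.52 ± 0.26, from a dim probe in the last 64 rows that read 29.1 and 41.8. Egr3, also induced by growth signals, was the lowest at -0.21 ± 0.14, with its 2 measured probes at -0.21 and -0.20. Chosen after its value was seen, Nab2, itself induced by EGR proteins, read 5966 and 8278 at its brightest probe and was at 0.47 ± 0.15. The list's median was 0.19, and -0.09 without the last 64 rows.

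Among the relatives of Atf3 in the ATF, CREB and C/EBP families, 11 of 15 lay below 0, against 48.8% of all genes. Of the 15, 0 passed 2-fold, near the shares of all genes, 3.67% upward and 2.41% downward. The median of the 15 was -0.13, and -0.08 with normexp. Cebpa, a differentiation factor, was the lowest at -0.83 ± 0.20, and Atf5 was the highest at 0.55 ± 0.14. Regulators upstream of the immediate early genes were read next, against the same shares of all genes. Of 7 measured genes among serum response factor and its cofactors, 0 passed 2-fold, from Fhl2 at -0.41 ± 0.20 to Elk3 at 0.45 ± 0.14. Their median was -0.08, and 0.06 among brighter probes. Of 26 RAS, ERK, JNK and p38 pathway genes, 0 passed 2-fold, with a median of 0.06, or 0.02 with normexp and 0.11 without the last 64 rows. They ran from the kinase Rps6ka5 at -0.66 ± 0.14 to Map2k3, an activator of p38, at 0.66 ± 0.12. The ubiquitin ligases that mark Jun for destruction had a median of 0.22 over 4 genes, or 0.08 with dim probes kept, from Itch at -0.16 ± 0.15 to Fbxw7 at 0.49 ± 0.14.

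Other immediate early genes went both ways, with 15 of 32 above 0, 17 below 0 (48.8% of all genes) and a median of -0.05. Of the 32, 1 was at least 2-fold higher and 1 lower, against 3.67% and 2.41% of all genes. The higher one was Btg2, an inhibitor of proliferation, at 1.08 ± 0.14. The brightest of its 2 probes gave 0.84. Under that rule of the brightest probe Zfp36l1, an RNA-binding protein that destabilises transcripts, passed 2-fold at 1.60 and Btg2 did not. Its brightest probe read 4134 and 12544, its other probe was at -0.16, and their mean was 0.72 ± 0.14. The lower one was the kinase Plk3, which read 5708 and 2816 (-1.02 ± 0.20), and with normexp it was at -0.96. Chosen after their values were seen, the zinc finger factors Klf4 and Klf6 were at 0.93 ± 0.20 and -0.90 ± 0.20.

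Of 20 genes known as targets of AP-1, 17 were measured, and 12 of these lay below 0, against 48.8% of all genes. Their median was -0.16, or -0.06 with normexp and -0.07 with dim probes kept. Passing 2-fold were 2 genes, both lower, against 2.41% of all genes, and 0 were 2-fold higher, against 3.67%. Ptgs2, the inducible cyclooxygenase, read 1485 in control and 561 in knockdown cells (-1.41 ± 0.20). Hmox1, heme oxygenase, read 39739 and 18130 (-1.13 ± 0.20). Chosen after its value was seen, Gja1 was the highest of the list at 0.98 ± 0.26. That value came from 1 of its 8 probes, a dim one that read 31.1 and 61.5. The matrix proteases Mmp3, Mmp10 and Mmp12 were well above background on neither array.

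**Figure D4:**
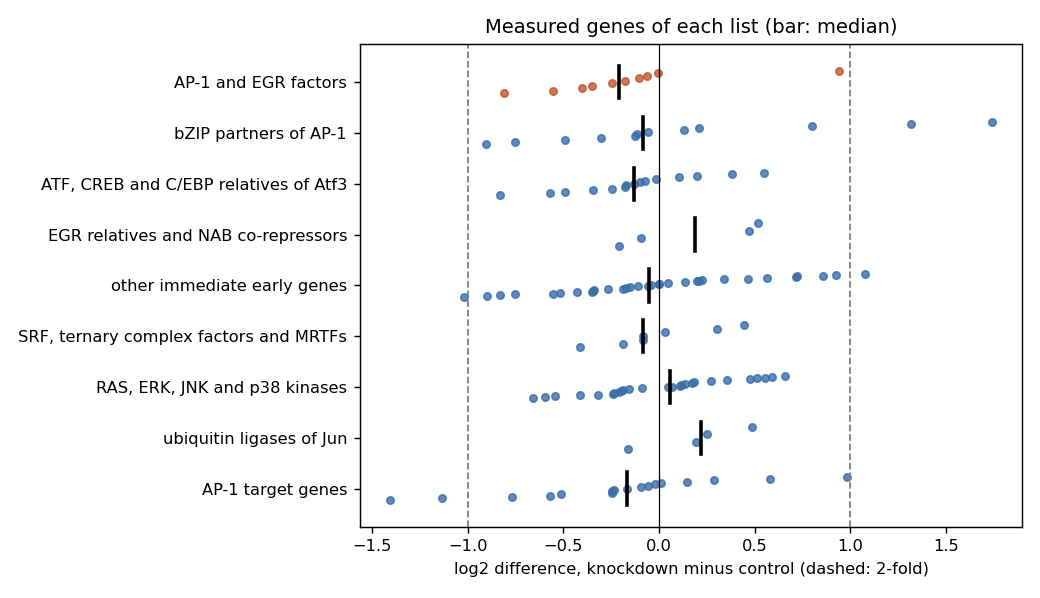
Log2 difference, knockdown minus control, of each measured gene (points) of the AP-1 and EGR factors and of 8 related lists, with the list's median as a bar and 2-fold as dashed lines. The AP-1 and EGR points run from -0.81 to 0.94, with Egr2 alone above 0, and the other immediate early genes from -1.02 to 1.08.

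Markers of other cell types were read on the same arrays. Of 8 microglia and immune cell markers, 4 were measured and lay above 0, while 48.8% of all genes lay below 0. Tmem119 was at 1.80 ± 0.24, from a dim probe that read 32.7 and 114. The summed scaled level of the 4 was 8.41 in control and 11.9 in knockdown cells. Ptprc was the largest part of both sums, at 0.55 ± 0.20 from 1 of its 7 probes. Itgam was at 0.11 ± 0.18 and Csf1r at 0.22 ± 0.14. The other markers of this list, Aif1, Cx3cr1, P2ry12 and C1qa, were well above background on neither array. Of 6 endothelial and mural cell markers 3 were measured, with Pdgfrb at 2.19 ± 0.33, Pecam1 at 0.26 ± 0.23 and Cdh5 at -0.75 ± 0.23. Their summed scaled level was 0.307 in control and 0.378 in knockdown cells. The Pdgfrb probe was dim, at 16.6 and 76.1. Kdr, Tek and Cldn5 were at background on both arrays. Measured markers of astrocytes, 3 of 6, summed to 0.229 and 0.286. Aqp4 was at 0.94 ± 0.21, with its 2 measured probes at -0.02 and 1.90. Aldh1l1 was at -0.08 ± 0.23 and Slc1a2 at 0.04 ± 0.25. The astrocyte sum leaves out S100b and Gfap. S100b read 9.22 and 122 and was at least 10.1-fold higher in knockdown cells. Gfap read 23.2 and 15.1, which is 1.53-fold higher in control cells. Each was well above background on 1 array alone. Those of the oligodendrocyte lineage, 5 of 6, summed to 1.06 and 1.05, and those of neurons, 3 of 6, to 8.06 and 8.78. Within the oligodendrocyte list Pdgfra was the highest at 0.89 ± 0.27 and Mog the lowest at -0.38 ± 0.21. The 2 measured probes of Mbp gave -0.40 and 0.67. Sox10, left out of that sum, read 17.4 and 11.2 and was well above background in control cells alone. In a bulk culture fewer cells of a type and less RNA per cell cannot be told apart. The part of other cells in the values of the AP-1 and EGR genes was not tested.

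**Figure D5:**
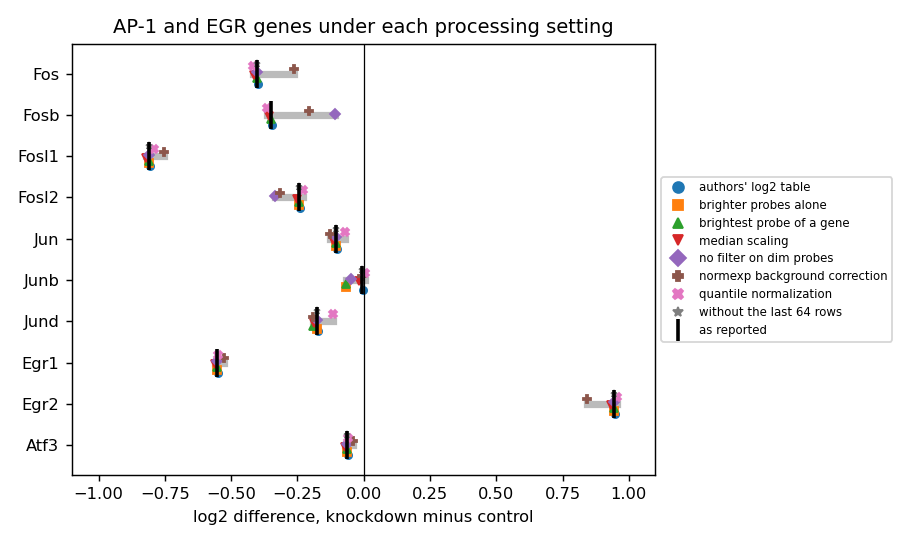
Log2 difference of each gene as reported (black bar) and under each of the 8 processing alternatives (coloured symbols), with the grey line joining the lowest and highest value. No gene passes 1 or -1 under any of them, and Junb lies within 0.07 of 0 throughout.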

How the data were processed

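Total RNA was amplified, labelled with Cy3 and hybridised to 1 Agilent array per group, both on 1 slide. Per the file headers, the deposited intensity values were read with Agilent Feature Extraction 12.1.0.3, protocol GE1_1200_Jun14, against build mm9; the processed signal is background-corrected and not scaled between arrays. The deposited scanner files also hold other columns, flags of 0 or 1 for outlying, saturated and well-above-background spots. The authors' deposited log2 table equals log2 of that signal minus a constant of 8.94 for each array, and 100% of probes with a single spot met this to 0.001. Its column medians were -3.82 and -3.81. It supplied gene symbols and probe sequences, and its values served as an alternative.

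Spots with outlier flags were left out (164), and 0 were saturated. Signals under 1 were set to 1, log2 was taken, and each array's 75th percentile was subtracted. Genes were averaged over those of their probes that both arrays showed well above background. Probes were named by accession through the RefSeq table of GRCm38 (34560 probes) or else by symbol, and 10425 had no name. The correlation between arrays across 16354 genes, which are not independent replicates, was 0.982. Calculations used Python 3.11.15, pandas 2.3.3 and limma 3.58.1, and were tested on simulated data.

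With 1 array per group no test was possible, and genes were counted at 2-fold, a rule of size. The number of arrays limits the precision. The members, lists and motifs were chosen with earlier results of these data known. All members were named with every probe. Of each related list, genes past 2-fold were named, or else the highest and lowest; others are marked as chosen after their values were seen. Alternatives were the background correction, scaling, normalization, source of values, filter on dim probes, rule for several probes and place on the array.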

Additional observations from a re-analysis of the deposited data

How the results depend on the processing

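Under all 8 alternatives, 0 AP-1 and EGR members were 2-fold higher and 0 were 2-fold lower. The median over the members measured ranged from -0.22 to -0.14. Fosb and Egr1 had no value without the last 64 rows, and Fos and Fosb none among brighter probes. The last 64 rows were set apart because of earlier results of these data. The largest shift among members was that of Fosb, to -0.11 without the filter on dim probes, where the median of all genes was 0.10. Junb changed sign, to 0.0045, under quantile normalization.

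Counts over all genes moved. The 600 higher and 394 lower genes became 191 and 167 with normexp, 151 and 183 among brighter probes alone, and 1282 and 1000 when dim probes were kept. The last 2 alternatives change which probes are counted. Without the dim filter Stat5b was at -1.49, the mean with its dim probe. The median of the other immediate early genes ranged from -0.08 to -0.03 and that of the bZIP partners from -0.13 to -0.07.

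Normexp was run on the raw median signal, not the raw mean. Leaving out a replicate was not possible with 1 array per group. No paired analysis was possible because each group had 1 array. Signal over background limits Fosb and the dim probes of Fosl2 and Junb.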
